A study of Drosophila melanogaster with 36 samples.

Results

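The Cyp9 genes are a family of cytochrome P450 genes, and 5 of them had named spots on a Drosophila melanogaster detoxification array: Cyp9b1, Cyp9b2, Cyp9c1, Cyp9f2 and Cyp9h1. They were taken as every gene whose symbol opens with Cyp9 and a letter, with pseudogenes left out. They made up 5 of the 159 named genes and 5 of the 77 genes with symbols beginning Cyp, pseudogenes left out. All animals were of the y; cn bw sp strain, and every exposure lasted 4 h against controls of its own. Adult males, 4 days old apart from a differing age on the label of 1 DDT array, were kept in 30 ml vials coated, with 150 µl acetone, with 10 µg DDT or with 10 µl of 1 M phenobarbital. Larvae of the 3rd instar, 4.5 days old when frozen, fed on 0.013% diazinon, 0.067% dicyclanil, 20 ppm lufenuron, 6e-05% spinosad, 6 ppm nitenpyram, 10 mM phenobarbital or 1.5 mg/ml caffeine. In each arm 8 samples of 50 whole animals were pooled to 400, and each of the 9 pool pairs went onto 4 two-colour arrays, with the exposed pool in Cy5 on arrays 1 and 3 and in Cy3 on arrays 2 and 4. The arrays of an exposure are therefore repeats of 1 pool pair, and a test over arrays compares 2 pools, not animals.

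Cytochrome P450s are haem enzymes that insert oxygen into fats, hormones and foreign compounds. In insects the CYP6 and CYP9 families form much of the CYP3 clan, the branch best known for breaking down plant toxins and insecticides and for being switched on by foreign chemicals. CYP9 enzymes of the honey bee and of the mosquito Aedes aegypti are known to metabolise insecticides. Phenobarbital and caffeine are general inducers of P450 genes in flies. Among the other compounds DDT acts on nerve sodium channels, diazinon is an organophosphate, lufenuron and dicyclanil disturb insect growth, and spinosad and nitenpyram act on nicotinic acetylcholine receptors.

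Cyp9b1 (CG4485) and Cyp9b2 (CG4486) are direct neighbours on chromosome arm 2R in the RefSeq annotation of Release 6 plus ISO1 MT, with esn on the far side of Cyp9b1 and Spn43Aa on the far side of Cyp9b2. Cyp9c1 (CG3616) and Cyp9h1 (CG17577) lie on 2R apart from them, and Cyp9f2 (CG11466) lies on 3R. That annotation lists 6 Cyp9 genes. The sixth, Cyp9f3, is separated from Cyp9f2 by 1 coding gene and was not analysed here. Each of the 5 members had 4 spots, numbered as 2 pairs of adjacent spots. All 5 had a value on each array used.

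Values below are log2 ratios of the exposed over the control pool, set against the array's own median over named genes. In adult males array 4 of DDT and array 4 of phenobarbital carried the same value at all 1936 spots, so both were dropped and 34 arrays remained. Which dye stood on top of the deposited ratio was not stated. It was taken as Cy5 over Cy3, the usual form in limma. With it Cyp6a2 and Cyp6a8, P450s of the CYP3 clan known to respond to phenobarbital, were higher with phenobarbital, at 1.98 ± 0.42 and 4.12 ± 0.33 in adults and at 2.15 ± 0.36 and 1.94 ± 0.28 in larvae. Were the ratio the other way up, every direction given here would turn round. Of 672 spots without a single gene name and with a value on all 34 arrays, 174 followed the exposed pool from dye to dye on all 34 and 0 kept to a single dye on all 34, so the ratios had not been turned before deposit. Spread between the dye orientations was large for the members, as given below. The part of it that a common dye term did not take up entered the error. With a separate dye term for each exposure the SE of Cyp9b1 in phenobarbital larvae was 0.10, against 0.30 with the common term. No signal intensities were used. The animals were extracted whole, so more RNA per cell and more cells of a kind cannot be told apart.

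In larvae given phenobarbital Cyp9b1 rose, and it was the member with the highest ratio in any exposure. The 4 arrays gave 2.78, 1.62, 2.94 and 1.61, and all 16 of its single spots lay between 1.48 and 2.99. Both arrays with the exposed pool in Cy5 exceeded both with it in Cy3, and no spot came near 0. The fitted ratio was 2.24 ± 0.30 (SE, n = 4 arrays), a 4.72-fold rise, with a limma adjusted p of 2.34e-07. It ranked 13 from the top of the 159 genes. Calls required an adjusted p under 0.05 and a ratio of at least 1.5-fold.

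Cyp9b2 rose in the same larvae. Its arrays gave 0.92, 0.85, 0.84 and 0.45, all above 0, and the fitted ratio was 0.77 ± 0.30, or 1.70-fold (adjusted p = 0.0343). The call was lost without array 1 (adjusted p = 0.184), array 2 (0.053) or array 3 (0.169), with the median of spots (0.0547) and with arrays scaled to the same spread (0.141). The average hides a split between its spots. The first spot pair averaged -0.11, with arrays between -0.38 and 0.20, whereas the second pair averaged 1.64, with arrays between 1.28 and 2.08. The second pair stood above the first on 4 of 4 arrays, and their ranges did not overlap. Fitted on the first pair alone, an alternative added after seeing the data, the ratio was -0.10 ± 0.28, and on the second pair alone 1.68 ± 0.46 (adjusted p = 0.0044). The 2 pairs of Cyp9b1, at 2.26 and 2.22, did not split in this way. Those of Cyp9h1 parted by less, at 0.43 and -0.18, with the second pair higher on 0 of 4 arrays. Over all arrays used, the median absolute difference between pairs was 0.56 for Cyp9b2. That ranked 62 from the largest of 155 genes with 4 spots, beside a median of 0.455 over those genes. Why the pairs of Cyp9b2 differ was not tested, and no probe sequences were used to show what each pair binds.

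The other 3 members were not called in phenobarbital larvae. Cyp9h1 stood at 0.13 ± 0.23, Cyp9c1 at -0.08 ± 0.21 and Cyp9f2 at -0.30 ± 0.21. So 2 of 5 members were called, both higher, against 43.4% of all genes called in this comparison (36 higher and 33 lower), a share close to that of the members. The sign of the lower values rests on the scaling: with arrays centred on 4 control genes the median of all genes lay 0.71 higher, Cyp9c1 stood at 0.63 and Cyp9h1 at 0.84 and both were called, and Cyp9f2 stood at 0.41. Centred that way, 67 genes were called higher and 3 lower. As deposited the split was 54 and 2, and centred on all spots it was 41 and 13. Cyp9b1 kept its call under these 3 scalings, at 2.95 centred on control genes, 3.02 as deposited and 2.47 centred on all spots. Cyp4g1, a marker of the hydrocarbon-making oenocytes, stood at -0.10 ± 0.26 in phenobarbital adults and at -0.95 ± 0.23 in phenobarbital larvae. Est-P, an esterase gene, stood at -1.27 ± 0.58 in the adults and at -0.39 ± 0.50 in the larvae. Their part in the results was not tested.

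**Figure D1:**
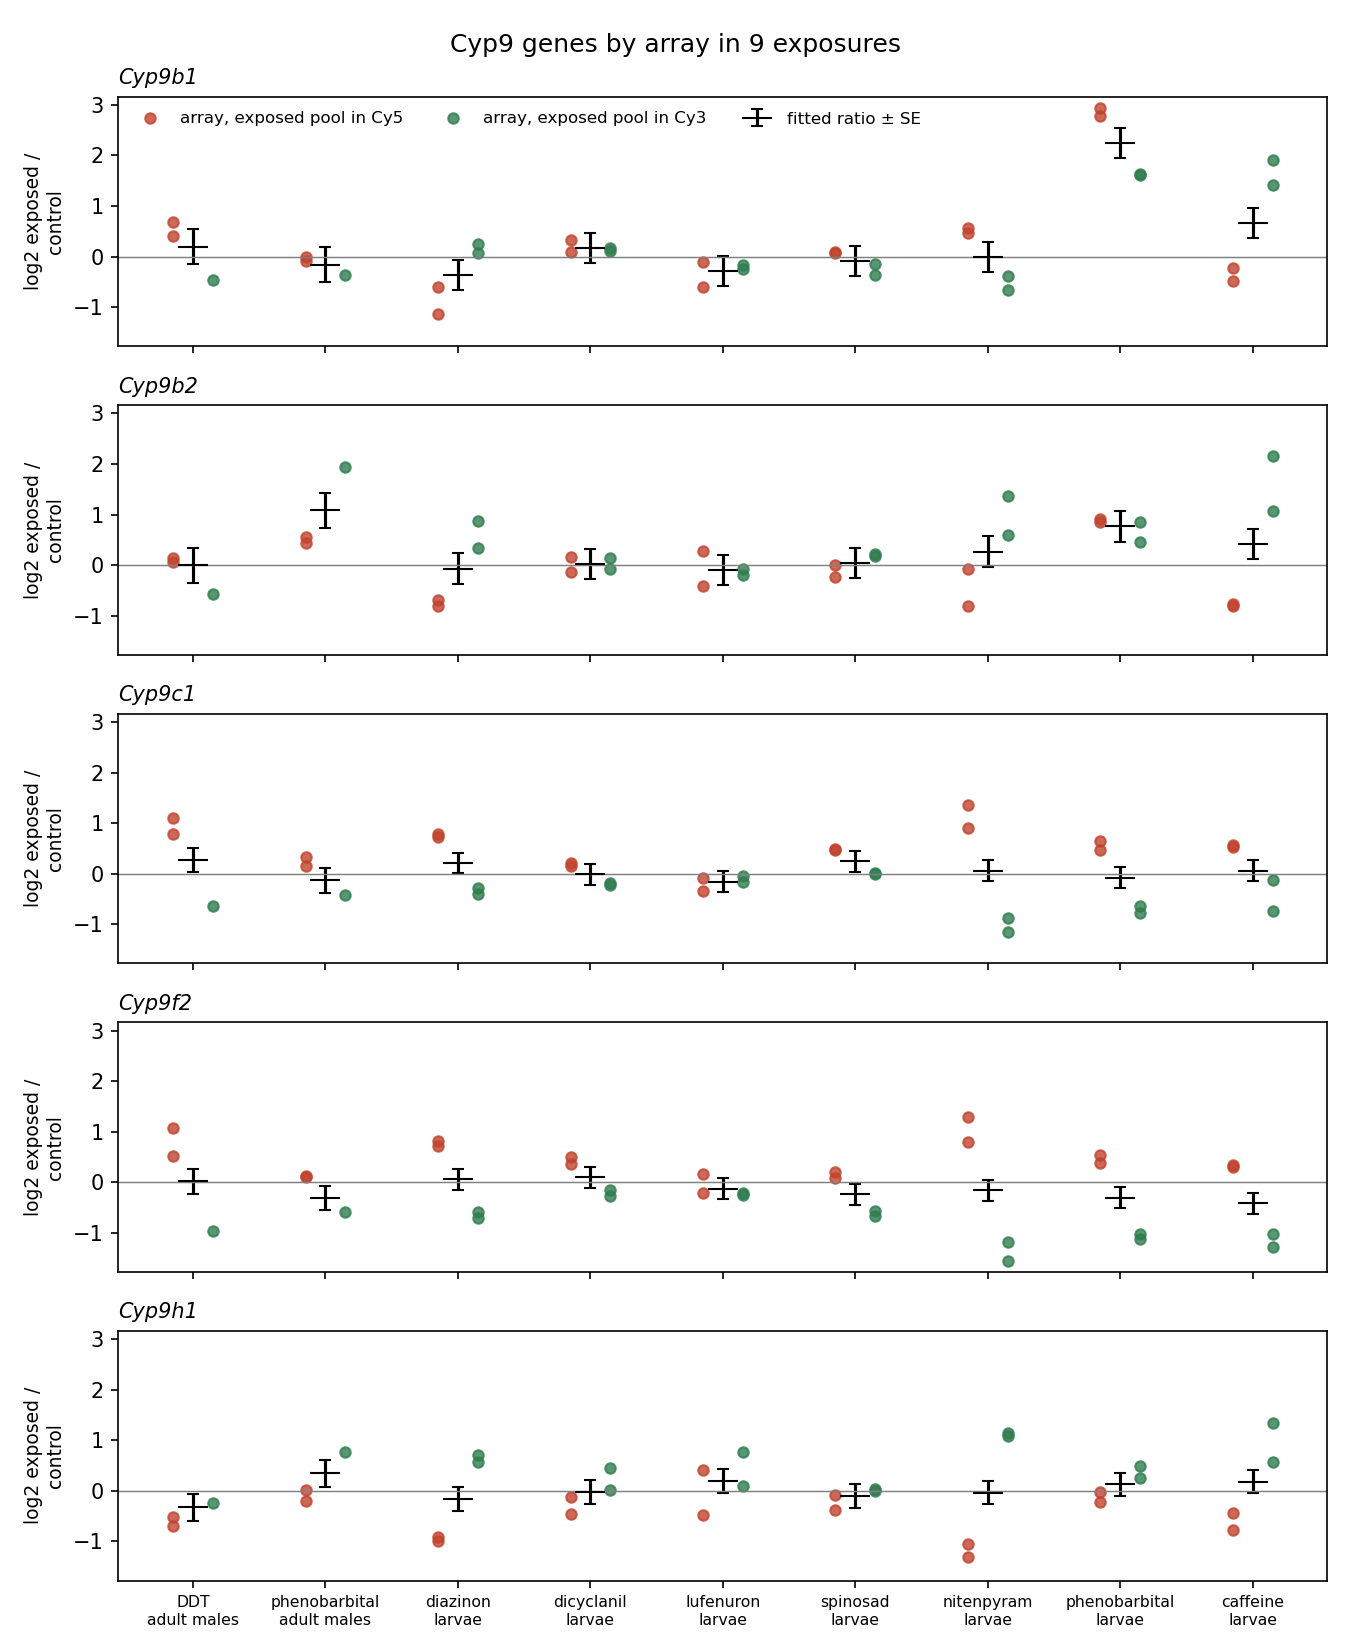
Log2 ratio of exposed over control (vertical axis) for each Cyp9 gene in the 9 exposures, with 1 point per array, coloured by the dye of the exposed pool, and the fitted ratio ± SE in black. Cyp9b1 in phenobarbital larvae, at 1.61 to 2.94, is the highest group, and Cyp9c1 and Cyp9f2 lie above 0 with Cy5 and below it with Cy3 in most exposures.

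In adult males given phenobarbital Cyp9b2 rose and its neighbour Cyp9b1 was not called. Cyp9b1 gave 0.00, -0.37 and -0.09 on the 3 arrays used, a fitted ratio of -0.16 ± 0.35 (adjusted p = 0.787). Cyp9b2 gave 0.43, 1.93 and 0.55, a fitted ratio of 1.09 ± 0.35 or 2.12-fold (adjusted p = 0.0239). All 3 arrays were above 0 but the one with the exposed pool in Cy3 was far higher. Without that array 2 the value was 0.80 (adjusted p = 0.368), and without array 3 it was 1.18 (adjusted p = 0.0527), so the call rests on both.

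The spot pairs of Cyp9b2 split in adults as in larvae. The second pair averaged 2.15, with arrays from 1.16 to 2.94, and the first 0.27, with arrays from -0.46 to 0.92, where both dye orientations count equally. The second pair was higher on 3 of 3 arrays. On the first pair alone Cyp9b2 stood at 0.23 ± 0.33 (adjusted p = 0.804). Cyp9h1 stood at 0.35 ± 0.27, Cyp9c1 at -0.13 ± 0.24 and Cyp9f2 at -0.31 ± 0.24, none of them called. Thus 1 of 5 members was called, against 18.2% of all genes.

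**Figure D2:**
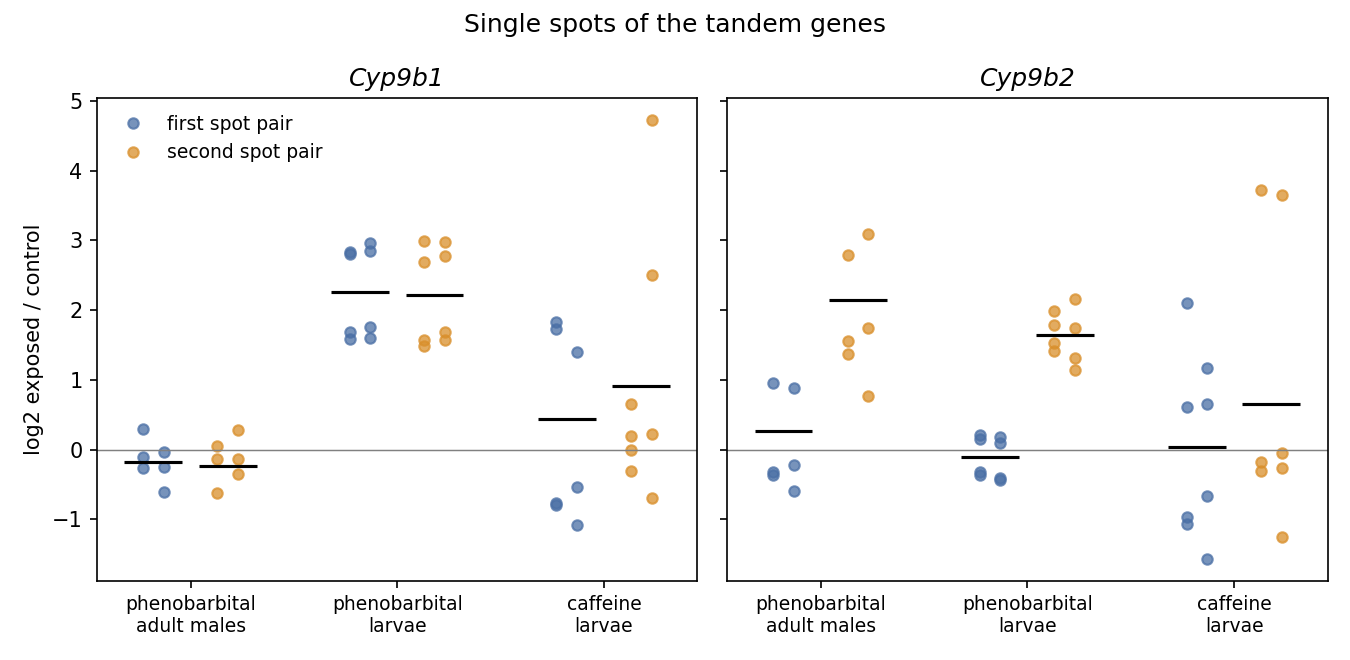
Log2 ratio of exposed over control (vertical axis) of every single spot of Cyp9b1 and Cyp9b2 in phenobarbital adult males, phenobarbital larvae and caffeine larvae, split into the first and second spot pair. Black bars are means over arrays with both dye orientations weighted equally. In phenobarbital larvae the pairs of Cyp9b1 share a level near 2.2, while those of Cyp9b2 lie at -0.11 and 1.64.

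Whether the response to phenobarbital differs between stages was tested directly as adult males minus larvae. Cyp9b1 differed by -2.40 ± 0.46, a 5.28-fold lower ratio in adult males (adjusted p = 0.000148). The adult arrays (-0.37 to 0.00) and larval arrays (1.61 to 2.94) did not overlap. Cyp9b2 differed by 0.32 ± 0.46 (adjusted p = 0.682), so its ratios in adults and larvae were not distinguishable, nor shown to be equal. Cyp9h1 differed by 0.22 ± 0.35, Cyp9f2 by -0.01 ± 0.32 and Cyp9c1 by -0.05 ± 0.32. Among all genes 17.6% were called for this difference, 10 higher in adults and 18 lower. Adult and larval phenobarbital were given at different doses by different routes, and only males were used as adults, so stage, dose, route and sex cannot be told apart. The call for Cyp9b1 was kept under all 12 other settings that could be run, at -2.89 to -1.54, and with each array of the 2 exposures left out.

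**Figure D3:**
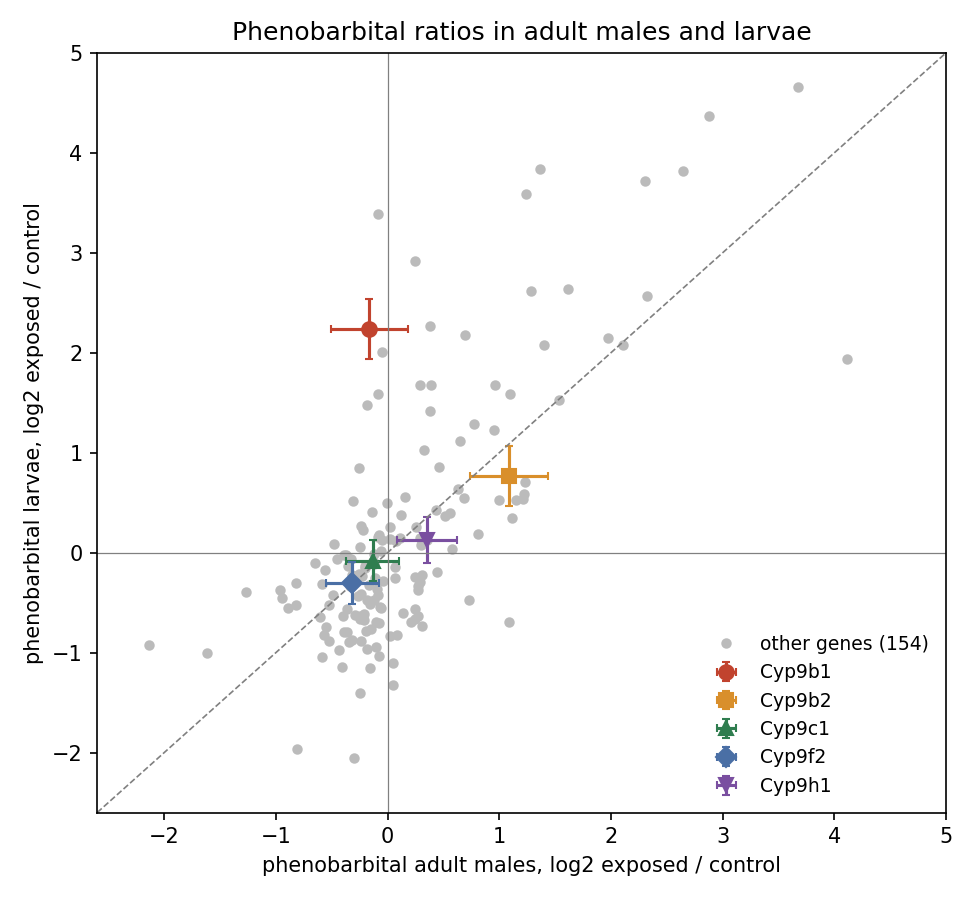
Fitted log2 ratio of exposed over control in phenobarbital adult males (horizontal axis) and phenobarbital larvae (vertical axis) for 159 genes, with the 5 Cyp9 genes marked and drawn with ± SE. The dashed line marks equal ratios. Cyp9b1 lies near 0 in adults and at 2.24 in larvae, and the other Cyp9 genes lie close to the line.

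Caffeine in larvae gave no called member, against 17.6% of all genes called. An unadjusted p under 0.05 was reached by 1 of 5 members and by 46 of 159 genes. Cyp9b1 had the highest ratio, 0.65 ± 0.30 (adjusted p = 0.131). Its arrays gave -0.48, 1.91, -0.22 and 1.41, so that both Cy5 arrays were below 0 and both Cy3 arrays above it. Single spots ran as far apart as -1.08 and 4.73. With a separate dye term for each exposure the same value had a smaller error (0.10) and was called (adjusted p = 1.58e-05). It was also called without array 1 (1.06) or array 3 (0.97), with arrays centred on all spots (0.90) and with arrays centred on control genes (1.11). Cyp9b2 showed the same turn with the dye, at -0.77, 2.16, -0.80 and 1.08, and stood at 0.42 ± 0.30. Cyp9h1 stood at 0.18 ± 0.23, Cyp9c1 at 0.06 ± 0.21 and Cyp9f2 at -0.41 ± 0.21.

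Set against caffeine larvae, phenobarbital larvae had a higher Cyp9b1 ratio by 1.58 ± 0.42, or 3.00-fold (adjusted p = 0.0059). It lost its call as deposited (1.78, adjusted p = 0.0731), on the second spot pair (1.36, adjusted p = 0.066) and with arrays scaled to the same spread (0.95, adjusted p = 0.0522). Cyp9b2 differed by 0.35 ± 0.42, Cyp9f2 by 0.11 ± 0.29, Cyp9h1 by -0.05 ± 0.33 and Cyp9c1 by -0.14 ± 0.29, and none of the 4 was called. In all 23.3% of genes were called.

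Taking each larval pool pair as a single observation, so that the spread between compounds sets the error, phenobarbital was compared with the other 6 larval exposures. Here a call needed an adjusted p under 0.05, and the lone phenobarbital pair was assumed to vary like the others. Cyp9b1 stood at 2.24 with phenobarbital, against 0.02 ± 0.37 (SD, n = 6 pool pairs, -0.36 to 0.65) with the others, a difference of 2.22 ± 0.35 (SE, adjusted p = 0.00201). Cyp9b2 stood at 0.77 with phenobarbital, against 0.10 ± 0.20 with the others, a difference of 0.67 ± 0.23 (adjusted p = 0.0554). Without caffeine among the others that difference was 0.73 (adjusted p = 0.00865). Cyp9h1 differed by 0.12 ± 0.19, Cyp9c1 by -0.15 ± 0.19 and Cyp9f2 by -0.17 ± 0.22. So 1 of 5 members was called, against 32.7% of all genes.

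The 5 larval insecticides were set against caffeine and phenobarbital in the same way. Cyp9b1 averaged -0.11 ± 0.21 (SD, n = 5 pool pairs) with the insecticides and 1.45 with the other pair of compounds, a difference of -1.56 ± 0.37 (adjusted p = 0.0179). Leaving out phenobarbital, so that caffeine stood alone, made this -0.77 (adjusted p = 0.0309), and leaving out caffeine made it -2.35. Cyp9b2 averaged 0.03 ± 0.14 with the insecticides and 0.59 with caffeine and phenobarbital, a difference of -0.56 ± 0.17 (adjusted p = 0.0391). Its call was lost without diazinon (-0.53), dicyclanil (-0.56), lufenuron (-0.53), spinosad (-0.56) or phenobarbital (-0.38). On its first spot pair alone the difference was 0.04. Cyp9h1 was called as well with ratios as deposited (-0.97) and with arrays centred on control genes (-0.83), and Cyp9c1 with arrays centred on control genes (-0.57). Cyp9f2 differed by 0.29 ± 0.16, Cyp9c1 by 0.08 ± 0.16 and Cyp9h1 by -0.18 ± 0.15. Of all genes 28.3% were called, and 2 of 5 members were, both lower with the insecticides.

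No member was called by limma under any of the 5 larval insecticides, and none had an unadjusted p under 0.05 there. Few other genes were called either: 1.26% with dicyclanil, 0.629% with nitenpyram and 0% each with diazinon, lufenuron and spinosad, where 2, 1 and 4 genes had an unadjusted p under 0.05. With dicyclanil 8 and with nitenpyram 9 of the 159 genes had such a p. The members' fitted ratios ran from -0.36, for Cyp9b1 with diazinon, to 0.27, for Cyp9b2 with nitenpyram. With dicyclanil all 5 lay between -0.03 and 0.17. In data simulated for phenobarbital larvae, with 60 of the 159 genes changed, 7 of 20 genes changed 1.5-fold, 16 of 20 changed 2-fold and 20 of 20 changed 4-fold were called. Recovery with as few changed genes as the insecticides showed was not simulated. The simulated dye term of a gene was the same in every exposure, whereas on the arrays the gap between dye orientations varied with the exposure.

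DDT in adult males called no member, against 6.29% of all genes. An unadjusted p under 0.05 was reached by 0 of 5 members and by 29 of 159 genes. Cyp9c1 was highest at 0.26 ± 0.24, on arrays at 0.78, -0.63 and 1.11. Cyp9b1 stood at 0.20 ± 0.35, Cyp9f2 at 0.02 ± 0.24, Cyp9b2 at -0.01 ± 0.35 and Cyp9h1 at -0.32 ± 0.27. For DDT minus phenobarbital in adult males, 8.18% of genes were called and no member was. There 38 of 159 genes and 1 of 5 members had an unadjusted p under 0.05. That member was Cyp9b2, at -1.09 ± 0.49 (adjusted p = 0.177). Centred on all spots it was called at -1.63 (adjusted p = 0.0469), and with a dye term per exposure it was called at -1.45 together with Cyp9h1 at -0.75. Cyp9h1 otherwise differed by -0.67 ± 0.38, Cyp9c1 by 0.40 ± 0.34, Cyp9b1 by 0.36 ± 0.49 and Cyp9f2 by 0.33 ± 0.34.

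The 3 members that were not called in any exposure differed in how well they were measured. Spots of Cyp9c1 and Cyp9f2 repeated closely, with a median SD between spots of an array of 0.08 and 0.07, against 0.48 for Cyp9b2, 0.46 for Cyp9h1, 0.22 for Cyp9b1 and a median of 0.36 over all genes. Their arrays of opposite dye orientation did not. In nitenpyram larvae Cyp9c1 gave 0.90, -0.87, 1.35 and -1.15, and Cyp9f2 gave 0.79, -1.18, 1.29 and -1.55. On these nitenpyram arrays both read as higher with the exposed pool in Cy5 and lower with it in Cy3. Cyp9h1 did the opposite, at -1.04, 1.13, -1.32 and 1.08. The dye term common to all arrays was 0.60 ± 0.07 for Cyp9f2, 0.46 ± 0.07 for Cyp9c1, -0.34 ± 0.10 for Cyp9b2, -0.48 ± 0.08 for Cyp9h1 and 0.02 ± 0.10 for Cyp9b1 (log2 Cy5 over Cy3). The gap between orientations varied with the exposure. For Cyp9c1 it ran from 2.14 in nitenpyram larvae to -0.12 in lufenuron larvae. For Cyp9b1 it was 1.24 in phenobarbital larvae and -2.01 in caffeine larvae.

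In the order of its 9 exposures Cyp9b1 separated phenobarbital larvae from caffeine larvae, the next in order, by more than 2 SE of the difference. No other neighbours in its order, and none in the order of the other 4 members, lay more than 2 SE apart. Cyp9b2 was highest in phenobarbital adults, then phenobarbital larvae and caffeine larvae. Cyp9h1 was highest in phenobarbital adults and lowest in DDT adults. Cyp9f2 was lowest in caffeine larvae.

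Among the other detoxification genes on the array, the CYP3 clan outside Cyp9 had 13 of 30 members higher and 1 lower in phenobarbital larvae, with a median of 0.53, against 2 of 5 higher and 0 lower with a median of 0.13 for Cyp9. P450s outside the clan with symbols beginning Cyp had 10 of 42 higher and 6 lower (median -0.01). The P450 genes dib, phtm, sad, shd and spo were not in that list, and stood at -0.14, -0.92, -0.70, 0.05 and -0.83. Glutathione S-transferases had 10 of 34 higher and 8 lower (median -0.02), beside a median of -0.15 over all genes. In phenobarbital adults the rest of the CYP3 clan had 8 of 30 higher and 1 lower (median 0.39). The Cyp9 genes had 1 of 5 higher and 0 lower (median -0.13), and all genes 27 of 159 higher and 2 lower (median -0.07). In caffeine larvae the rest of the clan had 10 higher and 2 lower (median 0.46) and Cyp9 none in either direction (median 0.18). All genes had 20 of 159 higher and 8 lower there (median -0.03). These lists were not tested against each other.

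The genes whose fitted ratios over the 9 exposures were most like those of Cyp9b1 were Cyp6d4 (Pearson r = 0.97), Cyp28a5 (0.96) and Cyp12a5 (0.96), all P450s. Over the 7 exposures other than phenobarbital, r was 0.87, 0.70 and 0.87. In phenobarbital adults these 3 genes stood at 0.25, -0.09 and 0.38, and in phenobarbital larvae at 2.92, 3.38 and 2.27. Cyp9b2 was most like Cyp12b2 (r = 0.98, and 0.96 without phenobarbital), Cyp6t1 (0.96 and 0.82) and Cyp4ae1 (0.92 and 0.70). Cyp12b2 stood at 1.23 in phenobarbital adults and 0.71 in phenobarbital larvae, and Cyp6t1 at 1.00 in the adults and 0.52 in the larvae. Cyp4ae1 stood at 2.11 in the adults and 2.07 in the larvae. Cyp9c1 was closest to GstT3 (0.82), Cyp313a1 (0.79) and Cyp4g1 (0.78), with 0.79, 0.72 and 0.90 without phenobarbital. Cyp9f2 was closest to alpha-Est8 (0.81), RpS20 (0.80) and RpL10Aa (0.79), with 0.76, 0.85 and 0.80 without phenobarbital. Cyp9h1 was closest to Cyp6t2Psi (0.90), Cyp4d8 (0.84) and Cyp6u1 (0.83), with 0.83, 0.72 and 0.71 without phenobarbital. The tandem genes Cyp9b1 and Cyp9b2 correlated with each other at 0.46 over the 9 exposures and at 0.77 over the 7 without phenobarbital. These correlations describe 9 pool pairs whose ratios share arrays and centring, and the highest of many were picked.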

How the data were processed

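The members and gene lists were chosen with earlier results of these data known. The deposited table holds log2 ratios of 2 dyes for 1936 spots on 36 arrays. The submitters' processing notes name limma, without a version or role. That limma made these ratios was assumed. Background handling and normalization were not given in the sources used here. A ceiling equal to the log2 of 100000 (2301 values) and 8543 empty values were treated as missing. The deposited log2 values were not centred (medians of named genes -1.95 to 0.63), so each array was centred on that median. The design had assumed normalized values. Gene symbols came from the platform annotation (656 spots, 159 genes), of which 158 matched RefSeq. The 4 spots of a gene were averaged.

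limma 3.58.1 in R 4.3.3 fitted a ratio per exposure plus a common dye term on all 159 genes, with Benjamini-Hochberg adjustment within each comparison. Contrasts used the same fit. Pool-level contrasts used averages of the 7 larval pool pairs. All 5 members were named, and for each the 3 genes with the highest r. Alternatives covered centring, scaling, spot averaging, spot minimum, dye term, block, the duplicated array and left-out arrays or exposures. Residuals of arrays of 1 dye orientation correlated at a mean r of -0.07 with the same array number and -0.09 with another, and numbers were not taken to pair arrays. The fits were tested on simulated data, with 1 of 99 unchanged genes called. Tables and figures used Python 3.11.15, pandas 2.3.3 and matplotlib 3.10.9.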

Additional observations from a re-analysis of the deposited data

Results flagged for a closer look

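The phenobarbital response of Cyp9b1 differed between the adult male and larval exposures. Adult males minus larvae stood at -2.40 on the log2 scale in the test of the difference itself. Each side was 1 pool pair, and stage, dose, route and sex cannot be told apart. In 2 of 35 sets of 4 larval arrays, 1 array stood apart from the other 3 beyond Dixon's critical value for 4. The measure was the gap as a share of the whole range. That critical value is meant for 4 like draws. Here each set held 2 arrays of each dye orientation with no dye adjustment, and sets of different genes shared arrays. How many sets chance would flag is therefore not known. In phenobarbital larvae array 4 of Cyp9b2 read 0.45 beside 0.84 to 0.92, a gap of 0.841 of the range, and without it the ratio was 0.99 (adjusted p = 0.0213). In lufenuron larvae array 1 of Cyp9f2 read 0.16 beside -0.25 to -0.21, a gap of 0.904 of the range. The cause of these patterns was not tested.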

How the results depend on the processing

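Cyp9b1 in phenobarbital larvae stayed called under 12 alternatives (1.40 to 3.02) and with each array left out (2.00 to 2.45). Its excess over the other 6 larval exposures stayed called under 9 alternatives (1.42 to 3.00) and with each other exposure left out (2.15 to 2.35). The call of Cyp9b2 in phenobarbital larvae was lost without array 1 (0.59), array 2 (0.85) or array 3 (0.62), with scaling to the same spread (0.49), with the median of spots (0.71) and on the first spot pair. In adults it was lost with the median of spots (0.97), on the first spot pair and without ratios of small whole numbers (0.94), and without array 2 (0.80) or array 3 (1.18), and it was kept under the other 9 alternatives and without array 1. A share of 10.7% of named-gene values equalled, to 3 decimals, the log2 of a ratio of whole numbers up to 7. Alternatives by spot pair and without such ratios were chosen after seeing the data. The array number entered as a replicate block, within dye orientation, changed no call and left Cyp9b1 in phenobarbital larvae at 2.24.

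The number of members called moved as follows. With ratios as deposited it was 0 for phenobarbital minus caffeine, where the default gave 1, and 3 for the insecticide contrast, where the default gave 2 (Cyp9h1 joined at -0.97). On the second spot pair it was also 0 for phenobarbital minus caffeine. Centred on all spots it was 1 for caffeine and 1 for DDT minus phenobarbital in adults, where the default gave 0 for each. Centred on control genes it was 4 for phenobarbital larvae, 2 for caffeine, 2 for phenobarbital minus the other 6 and 4 for insecticides minus caffeine and phenobarbital, where the defaults were 2, 0, 1 and 2. Scaled to the same spread these were 1 for phenobarbital larvae, 0 for phenobarbital minus caffeine and 1 for the insecticide contrast. The median of spots gave 0 in phenobarbital adults and 1 in larvae. The first spot pair gave 0 and 1 there, and 1 for the insecticide contrast. The second pair gave 2 for phenobarbital minus the other 6. Ratios without small whole numbers gave 0 in phenobarbital adults. A dye term per exposure gave 1 for caffeine and 2 for DDT minus phenobarbital. With an array or exposure left out the counts were 0 to 1 for caffeine and for phenobarbital adults, and 1 to 2 for phenobarbital larvae, for phenobarbital minus the other 6 and for the insecticide contrast. Leaving out arrays of other exposures changed none of 1765 calls. Counts over all genes moved at the same settings. Centred on control genes, 67 genes were called higher and 3 lower in phenobarbital larvae, 47 genes with caffeine and 76 for the insecticide contrast. Scaled to the same spread, 37 genes were called in phenobarbital larvae and 20 for the insecticide contrast. As deposited, 14 were called for phenobarbital minus caffeine. A dye term per exposure gave 45 for DDT minus phenobarbital. The count of all genes called ran over the alternatives other than left-out arrays and exposures from 37 to 75 in phenobarbital larvae (default 69), 24 to 44 in phenobarbital adults (29), 20 to 47 with caffeine (28), 0 to 20 with DDT (10), 0 to 11 with dicyclanil (2), 0 to 7 with lufenuron (0), 0 to 2 with spinosad (0) and 0 to 3 with nitenpyram (1). It ran from 10 to 52 for phenobarbital adults minus larvae (28), 14 to 59 for phenobarbital minus caffeine (37), 12 to 45 for DDT minus phenobarbital (13), 16 to 56 for phenobarbital minus the other 6 (52) and 20 to 76 for the insecticide contrast (45). With arrays or exposures left out it ran from 21 to 34 in phenobarbital adults, 3 to 17 with DDT, 0 to 4 with dicyclanil, 0 to 2 with nitenpyram, 0 to 1 with spinosad and 25 to 76 for the insecticide contrast, and elsewhere within 1.5 times the default.

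Values near 0 changed sign readily. The log2 values below were uncalled by default, apart from Cyp9b2 on its first spot pair in phenobarbital larvae and in the insecticide contrast. They stayed uncalled, apart from Cyp9c1 centred on control genes in phenobarbital larvae and in the insecticide contrast. The shift of the array centre accounts for the turns under the first 3 settings by construction, and the cause of the rest was not tested.

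With ratios as deposited, Cyp9b1 was 0.50 in phenobarbital adults, 0.084 in spinosad, 0.082 in nitenpyram and -0.30 for DDT minus phenobarbital in adults. Cyp9b2 was -0.14 in dicyclanil. Cyp9c1 was 0.53 in phenobarbital adults, 0.70 in phenobarbital larvae, 0.060 for phenobarbital minus caffeine, -0.26 for DDT minus phenobarbital in adults, 0.63 for phenobarbital minus the other 6 and -0.71 for the insecticide contrast. Cyp9f2 was 0.35 in phenobarbital adults, -0.071 in diazinon, -0.064 in dicyclanil, 0.48 in phenobarbital larvae, 0.17 in caffeine, -0.33 for DDT minus phenobarbital in adults, 0.60 for phenobarbital minus the other 6 and -0.51 for the insecticide contrast. Cyp9h1 was -0.34 in lufenuron, 0.072 in spinosad, 0.046 in nitenpyram and 0.15 for phenobarbital minus caffeine. With arrays centred on all spots, Cyp9b1 was 0.18 in phenobarbital adults, 0.019 in spinosad, 0.064 in nitenpyram and -0.18 for DDT minus phenobarbital in adults. Cyp9b2 was -0.0021 in dicyclanil. Cyp9c1 was 0.21 in phenobarbital adults, 0.15 in phenobarbital larvae, 0.062 for phenobarbital adults minus larvae, -0.14 for DDT minus phenobarbital in adults, 0.024 for phenobarbital minus the other 6 and -0.14 for the insecticide contrast. Cyp9f2 was -0.18 in DDT adults, 0.029 in phenobarbital adults, -0.019 in diazinon, 0.10 for phenobarbital adults minus larvae and -0.21 for DDT minus phenobarbital in adults. Cyp9h1 was 0.0077 in spinosad and 0.029 in nitenpyram. With arrays centred on control genes, Cyp9b1 was -0.019 in DDT adults, 0.066 in phenobarbital adults, 0.013 in spinosad and -0.085 for DDT minus phenobarbital in adults. Cyp9b2 was -0.17 for phenobarbital adults minus larvae. Cyp9c1 was 0.094 in phenobarbital adults, -0.012 in diazinon, -0.16 in nitenpyram, 0.63 in phenobarbital larvae, 0.12 for phenobarbital minus caffeine, -0.047 for DDT minus phenobarbital in adults, 0.54 for phenobarbital minus the other 6 and -0.57 for the insecticide contrast. Cyp9f2 was -0.20 in DDT adults, -0.16 in diazinon, 0.41 in phenobarbital larvae, 0.043 in caffeine, -0.12 for DDT minus phenobarbital in adults, 0.52 for phenobarbital minus the other 6 and -0.36 for the insecticide contrast. Cyp9h1 was 0.0011 in spinosad, -0.26 for phenobarbital adults minus larvae and 0.21 for phenobarbital minus caffeine. With arrays scaled to the same spread, Cyp9b1 was 0.025 in nitenpyram. Cyp9b2 was 0.040 in diazinon. Cyp9c1 was 0.038 for phenobarbital adults minus larvae. Cyp9f2 was -0.14 in DDT adults and -0.069 in diazinon. Cyp9h1 was 0.022 in dicyclanil and 0.0032 for phenobarbital minus caffeine. With the median of spots, Cyp9b1 was 0.0037 in nitenpyram. Cyp9b2 was -0.016 in dicyclanil. Cyp9f2 was -0.065 in DDT adults. With at least 3 spots, Cyp9b1 was 0.013 in nitenpyram. On the first spot pair, Cyp9b1 was 0.11 in nitenpyram. Cyp9b2 was -0.023 in dicyclanil, -0.10 in phenobarbital larvae, -0.24 for phenobarbital minus caffeine, -0.18 for phenobarbital minus the other 6 and 0.040 for the insecticide contrast. Cyp9c1 was 0.033 in dicyclanil and -0.015 for the insecticide contrast. Cyp9f2 was -0.19 in DDT adults. Cyp9h1 was 0.19 in dicyclanil, -0.13 for phenobarbital adults minus larvae and 0.033 for phenobarbital minus caffeine. On the second spot pair, Cyp9b2 was 0.087 in DDT adults and -0.10 in spinosad. Cyp9c1 was -0.086 in nitenpyram, -0.094 in caffeine and 0.032 for phenobarbital minus caffeine. Cyp9f2 was -0.036 in diazinon. Cyp9h1 was 0.11 in diazinon, -0.13 in phenobarbital larvae, -0.21 in caffeine, 0.075 for phenobarbital minus caffeine, -0.073 for phenobarbital minus the other 6 and 0.14 for the insecticide contrast. Without small whole-number ratios, Cyp9b2 was 0.031 in diazinon and -0.058 in dicyclanil. Cyp9c1 was -0.023 in nitenpyram. Cyp9f2 was -0.024 in DDT adults and 0.0018 for phenobarbital adults minus larvae. With a dye term per exposure, Cyp9f2 was -0.078 in DDT adults and 0.074 for phenobarbital adults minus larvae. With the array number as a block, Cyp9f2 was -0.011 in DDT adults. With the shared array counted as DDT array 4, Cyp9b1 was -0.030 in DDT adults. Cyp9f2 was -0.15 in DDT adults. With each array left out in turn, Cyp9b1 ran from -0.029 to 0.56 in DDT adults and from -0.19 to 0.22 in nitenpyram. Cyp9b2 ran from -0.067 to 0.72 in caffeine, from -0.26 to 0.51 in DDT adults, from -0.28 to 0.069 in diazinon, from -0.14 to 0.18 in dicyclanil, from -0.35 to 0.052 in lufenuron and from -0.063 to 0.11 in spinosad. Cyp9c1 ran from -0.038 to 0.17 in caffeine, from -0.16 to 0.042 for phenobarbital adults minus larvae, from -0.11 to 0.087 in dicyclanil, from -0.36 to 0.069 in lufenuron, from -0.17 to 0.0014 in phenobarbital larvae and from -0.23 to 0.32 in nitenpyram. Cyp9f2 ran from -0.22 to 0.22 in DDT adults, from -0.20 to 0.079 for phenobarbital adults minus larvae, from -0.019 to 0.23 in dicyclanil, from -0.31 to 0.11 in lufenuron and from -0.46 to 0.11 in nitenpyram. Cyp9h1 ran from -0.061 to 0.34 in caffeine, from -0.21 to 0.19 for phenobarbital minus caffeine, from -0.16 to 0.12 in dicyclanil, from -0.043 to 0.40 in lufenuron, from -0.28 to 0.026 in spinosad and from -0.28 to 0.24 in nitenpyram.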
